A study of Mus musculus with 18 samples.

Results

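Interferon-stimulated genes are the genes that cells switch on after an interferon signal, and 39 of them were followed here through osteogenic induction of O9-1 neural crest (NC) cells. They were chosen by name for their place in the interferon response by a rule that uses no measured value, although earlier results of these data were known when it was set, out of 55335 gene identifiers with counts. O9-1 is a single line of wildtype multipotent NC cells, taken from the head of mouse embryos, so the results describe 1 cell source. The data are bulk RNA-seq of 18 libraries of polyadenylated RNA, 3 in each of 6 groups. All cells were grown in osteoblast differentiation medium and all were transfected with siRNA. Ctrl+vehicle cells received scramble siRNA (siCtrl) and no FGF2, Ctrl+FGF2 cells received siCtrl and FGF2, a growth factor that signals through FGF receptors, and Y/T dKD+FGF2 cells received siRNA pools against Yap and Taz (siY/T) together with FGF2. Yap and Taz are transcriptional coactivators of the Hippo pathway, and dKD stands for double knockdown. Each group was collected at d2.5 and at d5 of differentiation. No untransfected cells and no Y/T dKD cells without FGF2 are among the libraries, so a response to transfection itself cannot be measured, and loss of Yap/Taz and any other property of the siY/T pools cannot be told apart. In the labels the days are separate batches. All tests therefore compare groups of the same day or the size of their differences, and a difference of level between days cannot be told apart from batch.

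Type I interferons bind a receptor made of Ifnar1 and Ifnar2, whose kinases Jak1 and Tyk2 phosphorylate Stat2 and its relatives. Stat2 and Irf9 are parts of the factor ISGF3, which binds the interferon-stimulated response element (ISRE) in the promoters of its targets, while interferon gamma acts on a different element (GAS). The target genes encode sensors of foreign nucleic acid, proteins that block viral RNA or viral entry, GTPases of cell-autonomous defense and parts of antigen presentation. Many of them also have a low basal level in cells that have not met a virus.

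Counts per gene, as the authors deposited them, summed to between 10377151 and 14698525 per library (median 12330911). The siRNA targets were read first. At d2.5 Yap1 was at 158, 159 and 164 CPM in Ctrl+vehicle, 140.3, 134 and 136 CPM in Ctrl+FGF2 and 68.6, 69.6 and 73.7 CPM in Y/T dKD+FGF2, where CPM is counts per 1000000 of the normalized library, and at d5 it was at 129, 144 and 138 CPM in Ctrl+vehicle, 149.6, 139 and 143 CPM in Ctrl+FGF2 and 69.9, 63.0 and 65.8 CPM in Y/T dKD+FGF2. Wwtr1, which encodes Taz, was at 152, 149 and 149 CPM in Ctrl+vehicle, 236, 233 and 238 CPM in Ctrl+FGF2 and 149, 138 and 143 CPM in Y/T dKD+FGF2 on the first day and at 210.4, 219 and 221 CPM in Ctrl+vehicle, 201, 206 and 203 CPM in Ctrl+FGF2 and 115, 119.9 and 116 CPM in Y/T dKD+FGF2 on the other. Both genes were lower in all Y/T dKD+FGF2 libraries than in any Ctrl+FGF2 library, and also than in any Ctrl+vehicle library except for Wwtr1 at d2.5, where those groups overlapped. The knockdown was partial, with fold changes against Ctrl+FGF2 of 0.515 and 0.460 for Yap1 and 0.608 and 0.575 for Wwtr1 at d2.5 and d5. The 11 NC and mesenchyme markers summed to between 5433 and 7643 CPM in a library, although Sox10, a defining NC marker, had no count in any. The 15 leukocyte markers summed to between 4.68 and 12.0 CPM, most of it Cd14 and Cd68, and 7 of them (Itgam, Lyz2, C1qa, C1qb, Tyrobp, Cd3e and Ncr1) had no count in any library. Endothelial markers summed to between 0.567 and 4.17 CPM and epithelial markers to between 0.189 and 6.11 CPM over 6 genes each. The labels do not say whether the replicates were separate cultures, so the p-values measure the spread between these libraries, which may be technical.

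The letters that ISGF3 reads were looked for in the promoters, taken from RefSeq as 250 bases before to 50 bases after each start on GRCm38.p6, which covered 31 of the 39 genes in 37 windows. The ISRE was searched on both strands as GAAA, any 2 bases and GAAA again, and was found in 16 of the 37 windows, 43.2%, against 3.43% of all 32817 windows. The GAS letters TTCNNNGAA occurred in 29.7% of the windows of these genes and in 8.29% of all, and an ISRE and a GAS match overlapped in 23 of the 32817 windows. CATTCC, the letters bound by the Tead factors that carry Yap and Taz to DNA, occurred in 5.41% of the windows of these genes against 14.7% of all. A match is a string of letters and not evidence of binding. Gbp2, Gbp3, Oas1a, Rsad2 and Stat2 held ISRE matches before the start that are not printed here. The 7 stretches below are of genes whose responses, or lack of one in the case of Isg15, are described next. Each lies before the RefSeq start, is read 5′ to 3′ on the strand of its gene and has the ISRE letters in capitals, with a match on the opposite strand reading TTTC, any 2 bases and TTTC. They come from chr19:34640770-34640828, plus strand (Ifit1), chr19:34583358-34583431, plus strand (Ifit3), chr3:142530268-142530307, plus strand (Gbp7), chr11:58199507-58199546, plus strand (Igtp), chr11:48871421-48871465, minus strand (Irgm1), chr8:71537572-71537617, minus strand (Bst2) and chr4:156200860-156200911, minus strand (Isg15).
Ifit1: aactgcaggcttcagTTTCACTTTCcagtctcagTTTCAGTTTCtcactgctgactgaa
Ifit3: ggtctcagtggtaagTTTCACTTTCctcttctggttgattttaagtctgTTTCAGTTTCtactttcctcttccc
Gbp7: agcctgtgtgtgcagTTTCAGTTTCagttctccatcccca
Igtp: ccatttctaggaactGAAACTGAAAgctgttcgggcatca
Irgm1: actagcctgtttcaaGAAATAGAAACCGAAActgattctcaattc
Bst2: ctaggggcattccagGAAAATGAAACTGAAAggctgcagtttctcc
Isg15: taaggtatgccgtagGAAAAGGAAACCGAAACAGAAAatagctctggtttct
Ifit1 and Ifit3, from the same cluster on chromosome 19, each held a pair of separate matches, while in Irgm1 and Bst2 adjoining matches shared letters. Isg15 held 3 such adjoining matches.

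Most of the 39 genes were expressed at a low level. A filter on low counts, applied to all genes alike, left 32 of them to be tested at d2.5 and 32 at d5, of which 31 were tested on both days. Oas2 was tested at d2.5 alone and Psmb8, a subunit of the immunoproteasome, at d5 alone. The 6 that could not be tested were Mx1, Oas1a, Oasl1, Psmb9, Rsad2 and Zbp1, which together had between 7 and 38 counts in a library. At d2.5 they summed to 14, 8 and 18 counts in Ctrl+vehicle, 16, 26 and 37 in Ctrl+FGF2 and 38, 25 and 36 in Y/T dKD+FGF2. Rsad2, which encodes the antiviral enzyme viperin, was listed at 0, 0.0694 and 0.497 CPM in Ctrl+vehicle, 0.3004, 0.698 and 0.638 CPM in Ctrl+FGF2 and 1.305, 0.496 and 0.753 CPM in Y/T dKD+FGF2 at d2.5. Mx1, a dynamin-like GTPase, was at 0.222, 0 and 0.0828 CPM in Ctrl+vehicle, 0.0751, 0.0775 and 0.142 CPM in Ctrl+FGF2 and 0.261, 0.331 and 0.836 CPM in Y/T dKD+FGF2 on that day. The highest library of each gene was a Y/T dKD+FGF2 one, but these levels rest on few reads and no test was made. Per kilobase of exon and averaged over the 6 groups, Ifitm3, which blocks entry of viruses through endosomes, was at 195 CPM per kb, far above Ifitm1 at 13.9, the surface tether Bst2 at 13.8 and the double-stranded RNA kinase Eif2ak2 at 12.8 CPM per kb. Ifitm3 was at 191 ± 1.97 CPM (SD, n = 3) in Ctrl+FGF2 at d2.5 and at 61.9 ± 6.28 CPM at d5. At the other end, Oas2, Mx2, Ifi44 and Usp18 lay under 0.5 CPM per kb.

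Differences between groups were tested with edgeR's quasi-likelihood test on the 9 libraries of a day, and a gene is said to have risen or fallen where its Benjamini-Hochberg adjusted p, over all genes tested, was under 0.05. All adjusted p-values below come from this test, and SE is the standard error of a log2 fold change. Bulk values cannot tell fewer expressing cells from less RNA per cell. The comparison with FGF2 and the comparison with the knockdown share the Ctrl+FGF2 libraries of their day, so their changes are given side by side and not as independent of each other.

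**Figure D1:**
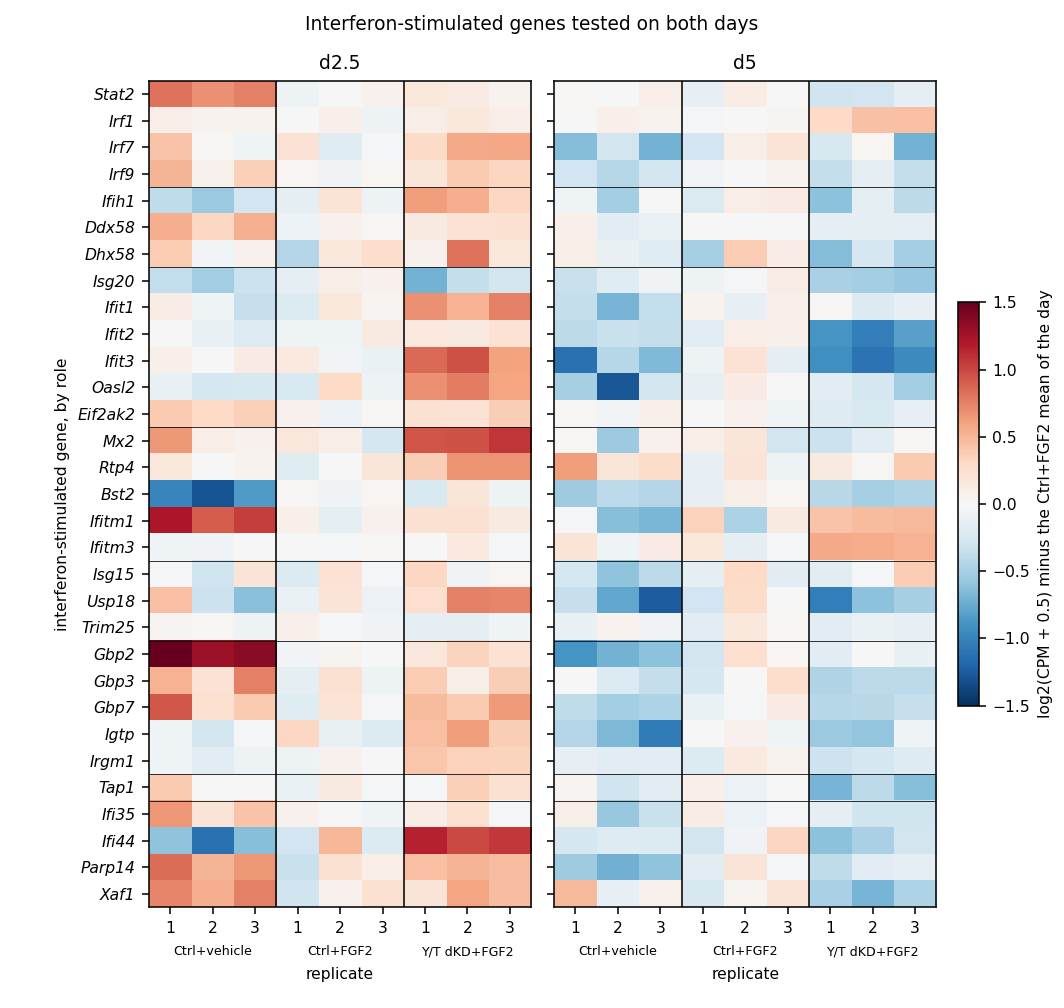
Level of the 31 genes tested on both days in every library, as log2(CPM + 0.5) minus the mean of the 3 Ctrl+FGF2 libraries of that day, with colors limited to 1.5 either way. Columns are replicates by group and rows are genes by role, with lines between roles. At d2.5 most rows are redder in Y/T dKD+FGF2 than in Ctrl+FGF2, and at d5 most are bluer, with Irf1, Ifitm1 and Ifitm3 as the reddest rows.

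The first question was whether FGF2 moved these genes at d2.5. It moved them in both directions: 5 rose and 11 fell among 32 tested, with a median log2 fold change of -0.08 against 0.00 over all genes. Among all 13677 genes tested, 33.5% were called higher and 34.1% lower, 67.6% in all, so the falls were near the background share and the rises fewer than it. Without Ctrl+vehicle d2.5 replicate 1 the median over the interferon-stimulated genes was 0.01. Libraries of the groups did not overlap for 5 genes above and 10 below, against 34.9% and 35.6% of all genes.

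Of the transcription factors, Stat2 and Irf9 fell while Irf1 and Irf7 passed no test at d2.5. Stat2, a part of ISGF3, was at 66.1, 60.4 and 63.7 CPM in Ctrl+vehicle and 35.6, 37.5 and 39.2 CPM in Ctrl+FGF2. The groups did not overlap, and the log2 fold change was -0.76 ± 0.05 (SE), adjusted p = 1.36e-13. Irf9, the DNA-binding part of ISGF3, was at 24.9, 18.2 and 22.3 CPM in Ctrl+vehicle and 17.6, 16.7 and 17.7 CPM in Ctrl+FGF2. All of its Ctrl+FGF2 libraries were lower, by a log2 fold change of -0.32 ± 0.09 (SE), adjusted p = 0.00292.

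The deepest falls were in a GTPase, Gbp2, and a membrane protein, Ifitm1. Gbp2, a guanylate-binding protein of the defense against intracellular pathogens, was at 15.4, 12.3 and 12.8 CPM in Ctrl+vehicle and 4.58, 4.89 and 4.75 CPM in Ctrl+FGF2, and its log2 fold change was -1.51 ± 0.12 (SE), adjusted p = 2.21e-12. Gbp7, from the same cluster on chromosome 3, was at 8.49, 5.07 and 5.72 CPM in Ctrl+vehicle and 3.68, 4.96 and 4.11 CPM in Ctrl+FGF2, with a log2 fold change of -0.60 ± 0.17 (SE), adjusted p = 0.00297. Ctrl+vehicle replicate 1 was the highest library of Gbp7, and without it the call was lost, with log2 fold changes of between -0.76 and -0.34 over the 9 fits that each left out 1 library. Gbp3 fell by 0.55 on the log2 scale (adjusted p = 0.00523), although its libraries overlapped and the call was lost without Ctrl+vehicle replicate 3 (log2 fold changes between -0.70 and -0.41). Reads that fit several members of this family were not counted, so the split between them is uncertain. Ifitm1, a membrane protein that restricts viral entry, was at 40.2, 32.5 and 35.5 CPM in Ctrl+vehicle and 18.1, 15.5 and 17.9 CPM in Ctrl+FGF2, a log2 fold change of -1.07 ± 0.08 (SE), adjusted p = 3.88e-13. Every Ctrl+vehicle library of Ifitm1 was well above every Ctrl+FGF2 library.

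Smaller falls were seen in genes of other roles. Xaf1, a proapoptotic partner of the inhibitor of apoptosis Xiap, was at 2.51, 2.15 and 2.57 CPM in Ctrl+vehicle and 0.976, 1.40 and 1.63 CPM in Ctrl+FGF2, with a log2 fold change of -0.84 ± 0.24 (SE), adjusted p = 0.00322. Parp14, a mono-ADP-ribosyltransferase, was at 6.87, 5.35 and 5.96 CPM in Ctrl+vehicle and 2.78, 4.34 and 3.90 CPM in Ctrl+FGF2, with a log2 fold change of -0.72 ± 0.16 (SE), adjusted p = 2.29e-04. The groups did not overlap for either gene. Ddx58 (RIG-I, a sensor of viral RNA ends), Ifi35 and Eif2ak2 (PKR, which halts translation) fell by log2 fold changes of -0.47, -0.45 and -0.35 (adjusted p = 1.77e-07, 6.02e-04 and 4.86e-07).

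The 5 genes that rose with FGF2 at d2.5 included a viral tether, a nuclease and a sensor. Bst2 (tetherin), which holds budding virus at the cell surface, was at 7.61, 6.04 and 8.45 CPM in Ctrl+vehicle and 15.8, 15.04 and 15.9 CPM in Ctrl+FGF2, a 2.13-fold change (log2 fold change 1.09 ± 0.12 (SE), adjusted p = 1.55e-09). Ifi44 was at 1.11, 0.625 and 1.08 CPM in Ctrl+vehicle and 1.502, 2.95 and 1.63 CPM in Ctrl+FGF2, with a log2 fold change of 1.11 ± 0.30 (SE), adjusted p = 0.00168. Neither gene overlapped between groups, though 1 Ctrl+FGF2 library held an Ifi44 value well above the other two. Ifih1 (MDA5), a sensor of long double-stranded RNA, was at 5.47, 4.79 and 5.88 CPM in Ctrl+vehicle and 6.61, 8.45 and 6.88 CPM in Ctrl+FGF2, with a log2 fold change of 0.45 ± 0.14 (SE), adjusted p = 0.00598. The call of Ifih1 was lost without Ctrl+FGF2 replicate 2, and its log2 fold change was between 0.34 and 0.51 over the 9 fits. Isg20, an exonuclease that degrades single-stranded RNA, was at 12.3, 11.0 and 12.8 CPM in Ctrl+vehicle and 14.5, 17.1 and 16.8 CPM in Ctrl+FGF2, with a log2 fold change of 0.43 ± 0.10 (SE), adjusted p = 6.04e-04. Oas2, whose product makes oligoadenylates in response to double-stranded RNA, had 2, 0 and 0 counts in Ctrl+vehicle and 6, 9 and 7 counts in Ctrl+FGF2 (adjusted p = 3.95e-04). The ratio of its summed counts, each scaled by the summed normalized library sizes of its group, was 10.9. The 95% interval, from 2.68 to 95.8, covers counting error only.

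The knockdown at d2.5 was compared with Ctrl+FGF2 to see what lower Yap/Taz did to the same genes under FGF2. Rises far outnumbered falls: 13 of 32 were called higher and 1 lower, with a median log2 fold change of 0.34 against 0.00 over all genes. Among all genes tested, 10.8% were called higher and 13.6% lower, 24.5% in all, so these genes were called higher more often than the background and lower less often. DESeq2, another count test, called 8 higher and 1 lower, where it called 2282 of 11568 genes in either direction. Estimates were above 0 for 29 of the 32, and every Y/T dKD+FGF2 library was above every Ctrl+FGF2 library for 21 and below for 2, where 18.8% and 20.6% of all genes were so. The mean level over all 39 genes, on the log2(CPM + 0.5) scale, was 2.69, 2.74 and 2.72 in Y/T dKD+FGF2 and 2.30, 2.44 and 2.40 in Ctrl+FGF2, groups that did not overlap. In Ctrl+vehicle it was 2.55, 2.29 and 2.45, which overlapped Ctrl+FGF2.

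Of the 7 RNA-level effectors tested, 4 rose and 1 fell. Ifit3, of a family that binds viral RNA alone or in complexes, lies at chr19:34583531-34588731, plus strand (GRCm38) and was at 2.10, 1.78 and 1.70 CPM in Ctrl+FGF2 and 3.74, 4.05 and 3.09 CPM in Y/T dKD+FGF2. Its level was 1.95-fold that of Ctrl+FGF2, a log2 fold change of 0.96 ± 0.20 (SE), adjusted p = 7.45e-04. Ifit1, which binds RNA that lacks the methylation of the host cap, was at 7.28, 9.46 and 8.72 CPM in Ctrl+FGF2 and 13.8, 12.3 and 14.6 CPM in Y/T dKD+FGF2, with a log2 fold change of 0.68 ± 0.12 (SE), adjusted p = 8.95e-05. Oasl2, an OAS-like protein, was at 3.53, 5.27 and 3.97 CPM in Ctrl+FGF2 and 7.05, 7.53 and 6.61 CPM in Y/T dKD+FGF2, with a log2 fold change of 0.73 ± 0.15 (SE), adjusted p = 5.66e-04. No library of these 3 genes overlapped between the groups. Ifit2, of the same cluster on chromosome 19, was at 23.4, 23.4 and 27.0 CPM in Ctrl+FGF2 and 27.1, 27.1 and 28.6 CPM in Y/T dKD+FGF2, which did not overlap either but passed no test (log2 fold change 0.16 ± 0.07 (SE), adjusted p = 0.111). Eif2ak2 rose from 58.9 ± 3.35 to 71.0 ± 4.20 CPM (SD, n = 3), a log2 fold change of 0.27 ± 0.05 (SE), adjusted p = 3.06e-04. The fall was in Isg20, at 14.5, 17.1 and 16.8 CPM in Ctrl+FGF2 and 9.66, 12.5 and 13.2 CPM in Y/T dKD+FGF2, with a log2 fold change of -0.45 ± 0.11 (SE), adjusted p = 0.00222.

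Among the membrane and virion effectors, Mx2 and Rtp4 rose. Mx2, of the dynamin-like Mx family and annotated in GENCODE as a polymorphic pseudogene in mouse, was at 0.751, 0.698 and 0.426 CPM in Ctrl+FGF2 and 1.65, 1.65 and 1.84 CPM in Y/T dKD+FGF2. All 3 knockdown libraries were above every Ctrl+FGF2 library. The log2 fold change of Mx2, 1.45 ± 0.33 (SE), adjusted p = 0.00136, was the highest among the called genes of the 39. Rtp4 was at 2.33, 2.71 and 3.12 CPM in Ctrl+FGF2 and 3.65, 4.63 and 4.60 CPM in Y/T dKD+FGF2 (log2 fold change 0.66 ± 0.18 (SE), adjusted p = 0.00800), and its call was lost without Ctrl+FGF2 replicate 1 (log2 fold changes between 0.55 and 0.77). Bst2, Ifitm1 and Ifitm3 passed no test, with log2 fold changes of -0.03, 0.20 and 0.04.

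Ifi44, at chr3:151730922-151749960, minus strand, came next in the size of its change at d2.5. It was at 1.502, 2.95 and 1.63 CPM in Ctrl+FGF2 and 4.96, 4.38 and 4.60 CPM in Y/T dKD+FGF2, with the groups well apart, and its log2 fold change was 1.20 ± 0.22 (SE), adjusted p = 1.16e-04. Parp14 was at 2.78, 4.34 and 3.90 CPM in Ctrl+FGF2 and 5.13, 5.38 and 5.19 CPM in Y/T dKD+FGF2, with a log2 fold change of 0.51 ± 0.17 (SE), adjusted p = 0.0264. The call of Parp14 was lost without Ctrl+FGF2 replicate 1 or Y/T dKD+FGF2 replicate 1, 2 or 3, with log2 fold changes of between 0.35 and 0.64 over the 9 fits.

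Both RNA sensors with signaling domains, Ifih1 and Ddx58, rose, as did 2 of 5 GTPases and 1 of 4 transcription factors. Ifih1 was at 6.61, 8.45 and 6.88 CPM in Ctrl+FGF2 and 11.5, 10.8 and 9.12 CPM in Y/T dKD+FGF2, with a log2 fold change of 0.52 ± 0.13 (SE), adjusted p = 0.00252 and no overlap. Ddx58 rose by 0.19 on the log2 scale (adjusted p = 0.0378), from 31.8 ± 1.74 to 36.4 ± 1.28 CPM (SD, n = 3). That call was lost without Ctrl+FGF2 replicate 1 or 3 or Y/T dKD+FGF2 replicate 2 or 3 (log2 fold changes between 0.15 and 0.22). Irgm1, an immunity-related GTPase that acts on vacuoles of pathogens, was at 21.9, 24.1 and 23.3 CPM in Ctrl+FGF2 and 30.9, 29.4 and 29.3 CPM in Y/T dKD+FGF2, with a log2 fold change of 0.37 ± 0.07 (SE), adjusted p = 1.87e-04. Gbp7 was at 3.68, 4.96 and 4.11 CPM in Ctrl+FGF2 and 6.09, 5.71 and 6.86 CPM in Y/T dKD+FGF2, with a log2 fold change of 0.55 ± 0.18 (SE), adjusted p = 0.0221. Irf9 was at 17.6, 16.7 and 17.7 CPM in Ctrl+FGF2 and 19.7, 22.9 and 21.8 CPM in Y/T dKD+FGF2, with a log2 fold change of 0.31 ± 0.10 (SE), adjusted p = 0.0163. Neither Gbp7 nor Irf9 overlapped, but the call of Gbp7 was lost without Ctrl+FGF2 replicate 1 or 3 or Y/T dKD+FGF2 replicate 1 or 3 (log2 fold changes between 0.46 and 0.67) and that of Irf9 without Ctrl+FGF2 replicate 2 or Y/T dKD+FGF2 replicate 2 or 3 (log2 fold changes between 0.26 and 0.36).

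Several genes stood apart between the groups without passing the test. Usp18, the protease that removes Isg15 and dampens the interferon receptor, was at 1.05, 1.40 and 1.06 CPM in Ctrl+FGF2 and 1.48, 2.32 and 2.26 CPM in Y/T dKD+FGF2 (adjusted p = 0.0576). Igtp, another immunity-related GTPase, was at 2.55, 1.78 and 1.63 CPM in Ctrl+FGF2 and 2.87, 3.31 and 2.68 CPM in Y/T dKD+FGF2 (adjusted p = 0.0555). Irf7, which drives transcription of the type I interferon genes, was at 2.63, 1.86 and 2.13 CPM in Ctrl+FGF2 and 2.78, 3.47 and 3.51 CPM in Y/T dKD+FGF2 (adjusted p = 0.0530). Oas2 had 13, 17 and 10 counts against 6, 9 and 7 in Ctrl+FGF2 (adjusted p = 0.0511). In contrast, Isg15, the ubiquitin-like protein that Usp18 removes from its targets, was at 4.36, 5.97 and 5.04 CPM in Ctrl+FGF2 and 6.44, 4.88 and 5.19 CPM in Y/T dKD+FGF2, and Trim25, a ligase that acts on the RIG-I pathway, at 47.8, 44.2 and 43.7 CPM in Ctrl+FGF2 and 41.1, 41.2 and 43.1 CPM in Y/T dKD+FGF2. Isg15 overlapped between the groups and had a log2 fold change of 0.10 ± 0.16 (SE), adjusted p = 0.7005, and Trim25 lay lower in every knockdown library without passing the test (-0.11 ± 0.06 (SE), adjusted p = 0.153).

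**Figure D2:**
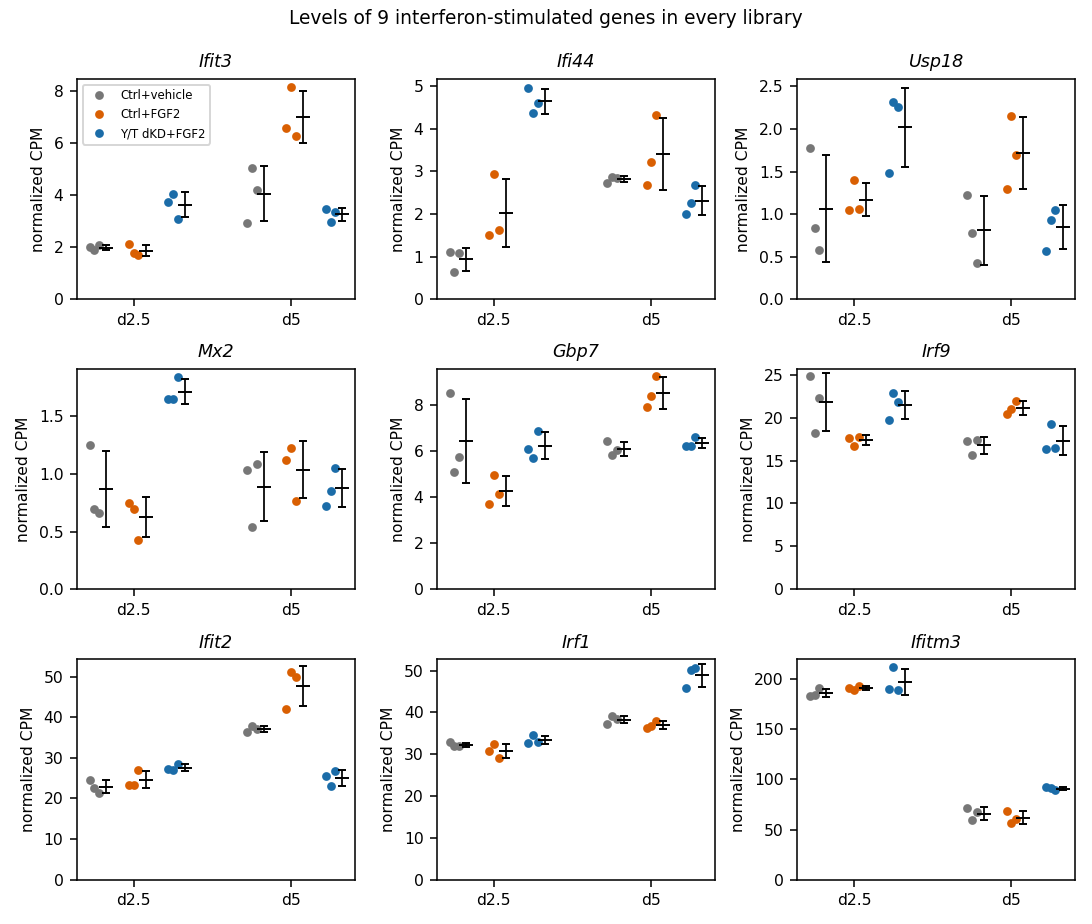
Normalized CPM of 9 interferon-stimulated genes in every library at d2.5 and d5. Points are libraries and the bar beside them is the mean with its SD (n = 3). For Ifit3 the Y/T dKD+FGF2 libraries lie above Ctrl+FGF2 at d2.5 (3.63 against 1.86 CPM on average) and below it at d5 (3.25 against 7.002 CPM), while Irf1 and Ifitm3 lie above it at d5.

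At d5 the FGF2 comparison no longer held a fall. With FGF2, 12 of 32 genes rose and 0 fell at an adjusted p under 0.05, with a median log2 fold change of 0.27 against 0.02 over all genes. Of all 13304 genes tested, 23.5% were called higher and 23.7% lower, and 47.2% in all. Every Ctrl+FGF2 library was above every Ctrl+vehicle library for 12 genes and below for 0, against 27.9% and 26.5% of all genes. At an unadjusted p under 0.05 edgeR counted 1 lower, Rtp4, against 26.4% of all genes. DESeq2 called 0 lower after adjustment, where it called 4919 of 14432 genes in either direction. The mean level over the 39 genes was 2.46, 2.58 and 2.57 in Ctrl+FGF2 and 2.35, 2.24 and 2.27 in Ctrl+vehicle on the log2(CPM + 0.5) scale, without overlap. Markers of other cells and of the NC itself moved with FGF2 too. The 6 endothelial markers, with Cdh5 and Cldn5 at 0 in every library, summed to between 2.98 and 4.17 CPM in Ctrl+vehicle and between 0.78 and 1.65 CPM in Ctrl+FGF2 at d2.5, and to between 0.567 and 0.699 CPM and between 1.19 and 1.82 CPM at d5, and Pecam1, the only one tested, had log2 fold changes of -1.55 and 1.40, both called. Of 10 NC and mesenchyme markers tested, 1 rose and 6 fell at d2.5, where 33.5% and 34.1% of all genes did. At d5, 6 of the 10 rose and 3 fell, where 23.5% and 23.7% of all genes did. The part of these markers in the change of the interferon-stimulated genes was not tested.

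The rises at d5 spanned RNA-level effectors, GTPases and factors of transcription. Usp18 was at 1.23, 0.777 and 0.420 CPM in Ctrl+vehicle and 1.299, 2.15 and 1.70 CPM in Ctrl+FGF2, a log2 fold change of 1.12 ± 0.35 (SE), adjusted p = 0.0129. That call was lost without Ctrl+vehicle replicate 3 or Ctrl+FGF2 replicate 2 (log2 fold changes between 0.81 and 1.5). Ifit3 was at 2.93, 5.05 and 4.20 CPM in Ctrl+vehicle and 6.58, 8.14 and 6.28 CPM in Ctrl+FGF2, a log2 fold change of 0.77 ± 0.17 (SE), adjusted p = 0.00142. Ifit1 and Ifit2 rose by less, with log2 fold changes of 0.52 and 0.37 (adjusted p = 0.00918 and 4.21e-04). Oasl2 was at 3.02, 1.55 and 3.61 CPM in Ctrl+vehicle and 4.07, 4.92 and 4.50 CPM in Ctrl+FGF2, a log2 fold change of 0.74 ± 0.23 (SE), adjusted p = 0.0124. Ctrl+vehicle replicate 2 was the lowest library of both Oasl2 and Ifit1, and without it neither call held (log2 fold changes between 0.44 and 1.01 and between 0.40 and 0.59 over the 9 fits).

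All 5 GTPases had estimates above 0 with FGF2 at d5, and 3 passed the test. Igtp was at 2.83, 2.33 and 1.68 CPM in Ctrl+vehicle and 3.98, 4.22 and 3.82 CPM in Ctrl+FGF2, a log2 fold change of 0.82 ± 0.21 (SE), adjusted p = 0.00393. Gbp2 was at 3.87, 4.43 and 4.78 CPM in Ctrl+vehicle and 6.15, 9.14 and 7.73 CPM in Ctrl+FGF2, a log2 fold change of 0.82 ± 0.16 (SE), adjusted p = 3.90e-04, where at d2.5 it had shown the deepest fall. Gbp7 was at 6.42, 5.82 and 6.04 CPM in Ctrl+vehicle and 7.88, 8.37 and 9.25 CPM in Ctrl+FGF2, a log2 fold change of 0.48 ± 0.12 (SE), adjusted p = 0.00313. None of these 3 overlapped between the groups. Parp14 was at 8.50, 7.38 and 8.06 CPM in Ctrl+vehicle and 11.2, 14.4 and 12.2 CPM in Ctrl+FGF2, a log2 fold change of 0.67 ± 0.12 (SE), adjusted p = 2.21e-04. Irf9 was at 17.3, 15.6 and 17.4 CPM in Ctrl+vehicle and 20.4, 20.97 and 22.0 CPM in Ctrl+FGF2, a log2 fold change of 0.34 ± 0.09 (SE), adjusted p = 0.00359. Bst2 rose again, at 10.2, 11.3 and 10.9 CPM in Ctrl+vehicle and 13.8, 16.1 and 15.4 CPM in Ctrl+FGF2, by a log2 fold change of 0.48 ± 0.10 (SE), adjusted p = 5.90e-04. The last call, Irf7, overlapped between the groups at 1.51, 2.10 and 1.43 CPM in Ctrl+vehicle and 2.08, 2.84 and 3.14 CPM in Ctrl+FGF2 (adjusted p = 0.0423) and was lost without Ctrl+vehicle replicate 1 or 3, Ctrl+FGF2 replicate 2 or 3 or Y/T dKD+FGF2 replicate 1 (log2 fold changes between 0.55 and 0.87).

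The knockdown at d5 went mostly the other way from d2.5. Compared with Ctrl+FGF2, 14 of 32 genes fell and 2 rose, with a median log2 fold change of -0.28 against 0.00 over all genes. Among all genes tested at d5, 16.1% were called lower and 15.6% higher, 31.7% in all, so the share of these genes called lower was above the background and the share called higher below it. Estimates were under 0 for 26 of the 32. Every Y/T dKD+FGF2 library was below every Ctrl+FGF2 library for 17 genes and above for 3, against 22.4% and 22.5% of all genes. The count of falls depended on single libraries. It was 7 without Ctrl+FGF2 d5 replicate 3 and 8 without Ctrl+FGF2 d5 replicate 2. Without Y/T dKD+FGF2 d5 replicate 1 it was 8, and without Ctrl+FGF2 d5 replicate 1 it was 17. Calls over all genes, in either direction, were 3341 of 13579, 3784 of 13462, 3454 of 13495 and 3947 of 13547 in these fits. The fit of all 9 libraries called 4220 of 13304. DESeq2 called 7 lower, where it called 3042 of 14000 genes in either direction. The mean level over the 39 genes was 2.27, 2.31 and 2.34 in Y/T dKD+FGF2, under the Ctrl+FGF2 values of 2.46, 2.58 and 2.57 and within the range of Ctrl+vehicle.

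Of the 6 RNA-level effectors tested, 4 fell, and estimates were under 0 for all 6. Ifit3 was at 6.58, 8.14 and 6.28 CPM in Ctrl+FGF2 and 3.46, 2.96 and 3.34 CPM in Y/T dKD+FGF2, and its level was 0.462-fold that of Ctrl+FGF2 (log2 fold change -1.11 ± 0.18 (SE), adjusted p = 1.38e-04). Ifit2, at chr19:34550694-34576419, plus strand, was at 42.1, 51.2 and 50.01 CPM in Ctrl+FGF2 and 25.6, 22.96 and 26.8 CPM in Y/T dKD+FGF2, a log2 fold change of -0.93 ± 0.08 (SE), adjusted p = 4.94e-08. The lowest Ctrl+FGF2 library of Ifit2 was far above the highest knockdown library. Isg20 was at 12.8, 13.3 and 14.7 CPM in Ctrl+FGF2 and 9.56, 9.42 and 8.98 CPM in Y/T dKD+FGF2, a log2 fold change of -0.54 ± 0.11 (SE), adjusted p = 7.24e-04, the same direction as at d2.5. Eif2ak2 fell by 0.18 on the log2 scale (adjusted p = 0.0108), and its call was lost without Ctrl+FGF2 replicate 2 or Y/T dKD+FGF2 replicate 2 (log2 fold changes between -0.22 and -0.15). Ifit1 and Oasl2, which had risen at d2.5, passed no test at d5, with log2 fold changes of -0.11 ± 0.14 (SE), adjusted p = 0.621, and -0.35 ± 0.21 (SE), adjusted p = 0.244.

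Usp18 and Tap1 had the deepest falls of their groups. Usp18, at chr6:121245906-121270917, plus strand, was at 1.299, 2.15 and 1.70 CPM in Ctrl+FGF2 and 0.563, 0.934 and 1.05 CPM in Y/T dKD+FGF2, a log2 fold change of -1.04 ± 0.34 (SE), adjusted p = 0.0267. The call was lost without Ctrl+FGF2 replicate 2 or 3 or Y/T dKD+FGF2 replicate 1 or 2 (log2 fold changes between -1.19 and -0.80). Tap1, a subunit of the transporter that brings peptides to MHC class I, was at 6.41, 5.68 and 6.11 CPM in Ctrl+FGF2 and 3.54, 4.51 and 3.72 CPM in Y/T dKD+FGF2, a log2 fold change of -0.62 ± 0.15 (SE), adjusted p = 0.00494 with no overlap. Xaf1 was at 2.77, 3.46 and 3.91 CPM in Ctrl+FGF2 and 2.25, 1.87 and 2.29 CPM in Y/T dKD+FGF2, a log2 fold change of -0.67 ± 0.22 (SE), adjusted p = 0.0304. Ifi44 was at 2.68, 3.23 and 4.33 CPM in Ctrl+FGF2 and 2.01, 2.26 and 2.67 CPM in Y/T dKD+FGF2, a log2 fold change of -0.57 ± 0.21 (SE), adjusted p = 0.0445. The groups did not overlap for Xaf1 or Ifi44, but the call of Xaf1 was lost without Ctrl+FGF2 replicate 2 or 3 or Y/T dKD+FGF2 replicate 1, 2 or 3 (log2 fold changes between -0.79 and -0.55) and that of Ifi44 without Ctrl+vehicle replicate 3, Ctrl+FGF2 replicate 2 or 3 or Y/T dKD+FGF2 replicate 1 or 2 (log2 fold changes between -0.71 and -0.37).

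The remaining falls at d5 were small. Bst2 was at 13.8, 16.1 and 15.4 CPM in Ctrl+FGF2 and 11.2, 10.5 and 10.9 CPM in Y/T dKD+FGF2, a log2 fold change of -0.48 ± 0.10 (SE), adjusted p = 0.00103, which brought it to the level of Ctrl+vehicle (10.8 ± 0.575 CPM, SD, n = 3). Stat2 fell by 0.25 (adjusted p = 0.00718) and Irf9 by 0.28 (adjusted p = 0.0169) on the log2 scale. Gbp7 was at 7.88, 8.37 and 9.25 CPM in Ctrl+FGF2 and 6.19, 6.23 and 6.59 CPM in Y/T dKD+FGF2, a log2 fold change of -0.43 ± 0.12 (SE), adjusted p = 0.0109. Irgm1 changed by -0.27 (adjusted p = 0.0118) with overlapping libraries, and Gbp3 changed by -0.49 (adjusted p = 0.0482). Of these calls, Irf9 was lost without Ctrl+FGF2 replicate 3 or Y/T dKD+FGF2 replicate 1 or 3 (log2 fold changes between -0.37 and -0.24) and Gbp7 without Ctrl+FGF2 replicate 3 (between -0.48 and -0.36). Irgm1 was lost without Ctrl+FGF2 replicate 2 or 3 or Y/T dKD+FGF2 replicate 1 (between -0.36 and -0.20), and Gbp3 without Ctrl+vehicle replicate 3, Ctrl+FGF2 replicate 2 or 3 or Y/T dKD+FGF2 replicate 1, 2 or 3 (between -0.61 and -0.34).

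The 2 genes that rose with the knockdown at d5 were Irf1 and Ifitm3. Irf1, a transcription factor induced most strongly by interferon gamma, was at 36.3, 36.8 and 38.0 CPM in Ctrl+FGF2 and 45.8, 50.3 and 50.6 CPM in Y/T dKD+FGF2, a log2 fold change of 0.40 ± 0.06 (SE), adjusted p = 2.68e-05. Ifitm3 was at 68.7, 56.2 and 60.9 CPM in Ctrl+FGF2 and 92.1, 91.2 and 89.1 CPM in Y/T dKD+FGF2, a log2 fold change of 0.56 ± 0.07 (SE), adjusted p = 5.59e-06. Neither overlapped with Ctrl+FGF2 or with Ctrl+vehicle. Ifitm1 lay above Ctrl+FGF2 in every knockdown library, at 7.53, 4.07 and 6.45 CPM in Ctrl+FGF2 and 8.04, 8.33 and 8.403 CPM in Y/T dKD+FGF2, and missed the threshold (adjusted p = 0.0724). On the same day the leukocyte markers summed to between 8.33 and 8.68 CPM in Y/T dKD+FGF2 and between 4.68 and 6.38 CPM in Ctrl+FGF2, from Cd68 and Cd14, which rose by log2 fold changes of 1.07 and 0.72, while 7 of the 15 markers had no count in any library. The 11 NC and mesenchyme markers summed to between 5433 and 5496 CPM in Y/T dKD+FGF2 and between 7419 and 7643 CPM in Ctrl+FGF2. The part of either set of markers in these rises, or in the falls above, was not tested.

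**Figure D3:**
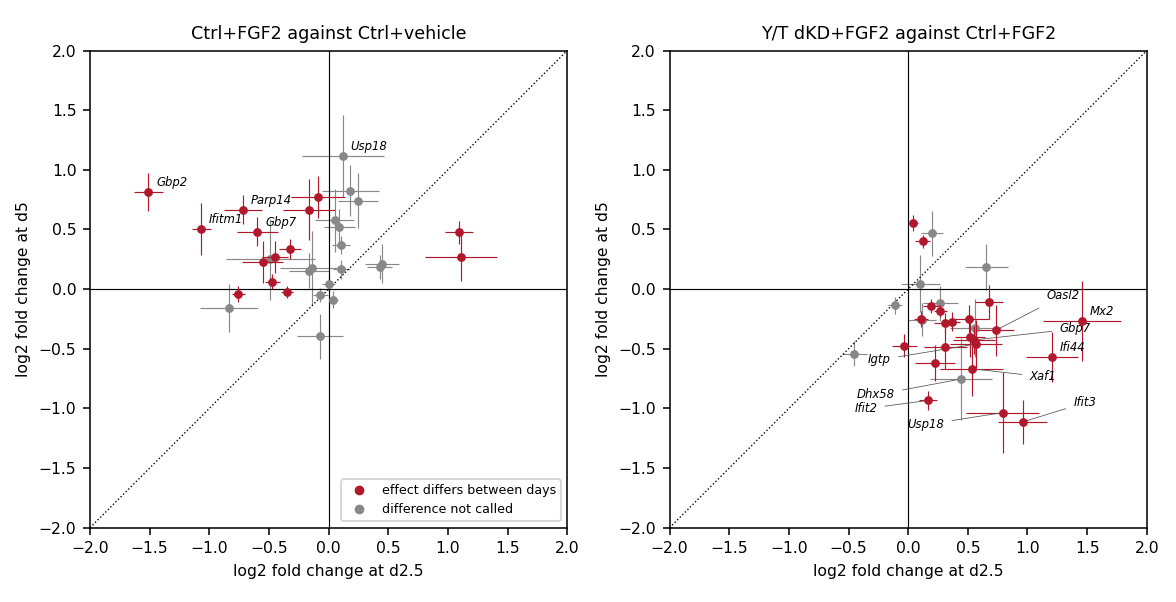
Log2 fold change at d5 (vertical) against d2.5 (horizontal) of the 31 genes tested on both days, for FGF2 (left) and for the knockdown (right), with the SE of each as bars and the line of equal change dotted. Red points are genes whose effect differed between days at an adjusted p under 0.05. On the right, 23 of the 31 points lie in the lower right quadrant, where the estimate is above 0 at d2.5 and under 0 at d5.

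Whether the effects themselves differed between d2.5 and d5 was tested in 1 fit of all 18 libraries, in which 33 of the 39 genes were tested. The effect of the knockdown was lower at d5 than at d2.5 for 21 of the 33 and higher for 2, with a median difference of -0.79 on the log2 scale. Of all 14198 genes in that fit, 9.35% were called lower and 11.6% higher, 20.9% in all, and the median was 0.01. The largest differences were in Oas2 (-2.30 ± 0.67 (SE), adjusted p = 0.0131), Ifit3 (-2.08 ± 0.27 (SE), adjusted p = 1.35e-06), Usp18 (-1.83 ± 0.48 (SE), adjusted p = 0.00660) and Ifi44 (-1.78 ± 0.31 (SE), adjusted p = 9.50e-05). Those of Mx2 and Ifit2 were -1.72 ± 0.47 (SE), adjusted p = 0.00843, and -1.10 ± 0.11 (SE), adjusted p = 1.80e-08. By role, 6 of 7 RNA-level effectors, 4 of 5 GTPases, 3 of 4 of the other induced genes (Ifi35, Ifi44, Parp14 and Xaf1) and 2 of 3 sensors were among the 21. The 2 whose knockdown effect was higher at d5 were Ifitm3 (0.51) and Irf1 (0.28), the call of Irf1 being lost without Ctrl+FGF2 d2.5 replicate 2 (between 0.23 and 0.33 over the 18 fits that left out 1 library). Called members in this comparison that were lost in some of those fits were also Bst2 (without Ctrl+FGF2 d2.5 replicate 2, Y/T dKD+FGF2 d2.5 replicate 2, Ctrl+FGF2 d5 replicate 2 or 3 or Y/T dKD+FGF2 d5 replicate 2, differences between -0.53 and -0.34) and Gbp3 (without Ctrl+FGF2 d2.5 replicate 1 or 3, Y/T dKD+FGF2 d2.5 replicate 1 or 3, Ctrl+FGF2 d5 replicate 3 or Y/T dKD+FGF2 d5 replicate 1, differences between -0.94 and -0.65).

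The 2 days share no library, so calls can be counted across them. Called higher with the knockdown at d2.5 and lower at d5 were 6 of the 31 genes tested on both days, Eif2ak2, Gbp7, Ifi44, Ifit3, Irf9 and Irgm1. Of the 12845 genes tested on both days, 1.16% changed so. Among the 6, only Ifit3 kept both calls in every fit that left out 1 library. Isg20 alone was called lower on both days, against 4.21% of all, and none of the 31 was called lower at d2.5 and higher at d5, against 1.73% of all, nor at an unadjusted p under 0.05 by edgeR. By estimate alone, without a call, 23 of the 31 were above 0 at d2.5 and under 0 at d5, against 20.9% of all genes. The reverse order of estimates was seen in 0 of the 31, against 21.2%. Isg15, Trim25, Dhx58 and Psmb8 were not called in any comparison in which they were tested, and Isg15 at d5 was at 1.70, 1.24 and 1.51 CPM in Ctrl+vehicle, 1.90, 2.77 and 1.87 CPM in Ctrl+FGF2 and 1.85, 2.10 and 2.96 CPM in Y/T dKD+FGF2, where every Ctrl+vehicle library was the lower of any pair without passing the test.

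The effect of FGF2 was higher at d5 than at d2.5 for 12 of 33 genes and lower for 2, with a median difference of 0.47 on the log2 scale against 0.03 over all genes. Of all genes, 31.8% were called higher and 29.1% lower, 60.9% in all, so the share called higher was close to the background and the share called lower under it. Gbp2 differed most (2.30 ± 0.20 (SE), adjusted p = 2.66e-11), followed by Ifitm1 (1.55 ± 0.23 (SE), adjusted p = 6.89e-07), Parp14 (1.36 ± 0.20 (SE), adjusted p = 9.45e-07) and Gbp7 (1.06 ± 0.22 (SE), adjusted p = 1.27e-04). Gbp2, Gbp7, Irf9 and Parp14 were called lower at d2.5 and higher at d5, 4 of 31 genes against 11.8% of all genes, and Bst2 alone was called higher on both days, against 5.43% of all, with 7.93% of all called lower on both. The 2 with a lower effect at d5 were Bst2 (-0.64) and Ifi44 (-0.86). The call of Ifi44 was lost without Ctrl+vehicle d2.5 replicate 2, Ctrl+FGF2 d2.5 replicate 2, Y/T dKD+FGF2 d2.5 replicate 3, Ctrl+vehicle d5 replicate 1, 2 or 3 or Ctrl+FGF2 d5 replicate 1 or 2, with differences of between -1.06 and -0.51. That of Irf7 was lost without Ctrl+vehicle d2.5 replicate 1, Ctrl+FGF2 d2.5 replicate 2 or 3, Ctrl+vehicle d5 replicate 1 or 3 or Ctrl+FGF2 d5 replicate 2 or 3, with differences of between 0.60 and 1.02.

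Y/T dKD+FGF2 was also set against Ctrl+vehicle, which shares its libraries with the comparisons above and differs in both siRNA and FGF2. At d2.5, 13 of 32 genes were higher and 5 lower, where 34.1% and 35.7% of all genes were called, 69.8% in all, and the median log2 fold change was 0.12. Ifi44 was at 1.11, 0.625 and 1.08 CPM in Ctrl+vehicle and 4.96, 4.38 and 4.60 CPM in Y/T dKD+FGF2, a 4.98-fold change (log2 fold change 2.31 ± 0.26 (SE), adjusted p = 2.17e-09). Oasl2, Ifih1 and Mx2 were higher by log2 fold changes of 0.98, 0.97 and 0.96 (adjusted p = 2.03e-06, 1.61e-07 and 0.00582). Gbp2, Ifitm1 and Stat2 were lower, by log2 fold changes of -1.24, -0.87 and -0.65 (adjusted p = 1.45e-10, 4.13e-11 and 5.93e-12). At d5, 6 were higher and 6 lower, against 20.7% and 21.1% of all genes, 41.8% in all, with a median of -0.01. The highest were Ifitm1 at 5.76, 3.57 and 3.44 CPM against 8.04, 8.33 and 8.403 CPM (log2 fold change 0.97 ± 0.21 (SE), adjusted p = 9.26e-04), Gbp2 (0.70) and Ifitm3 (0.47). The lowest were Xaf1 (-0.82), Ifit2 (-0.56) and Tap1 (-0.46), of which the call of Tap1 was lost without Ctrl+vehicle replicate 1 or 3 or Y/T dKD+FGF2 replicate 1 or 3 (log2 fold changes between -0.59 and -0.37).

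Genes with ISRE letters in the promoter window were set beside those without, among the genes that had a window and were tested. With the knockdown at d2.5, 7 of 14 genes with a match and 3 of 12 without were called higher, against 10.8% of all genes. At d5, 7 of 14 with a match and 6 of 13 without were called lower, against 16.1% of all genes. The difference between days was called lower for 11 of 14 with a match (median -0.55) and 6 of 13 without (median -0.84). Of all genes, 9.35% were called lower in that fit, and the medians did not run in the same order as the counts. Ifi44, Irf9 and Oasl2, which were among the genes called higher at d2.5, held no match in their windows, and Isg15, with 3 matches, was not called in any comparison.

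The rest of the pathway was read from lists of ligands, receptors, sensors and other targets. None of the 21 interferon genes could be tested, and 20 had no count in any of the 18 libraries, Ifnb1 among them, with 2 counts in all for Ifne. In a single library of this depth a count of 0 allows a level of up to 0.204 to 0.289 CPM, from 3 counts and for counting error only. Lower levels can still give a count, as Ifne did at 0.0777 CPM in Ctrl+vehicle d5 replicate 2. A count of 0 in all 18 libraries allows less than this, by an amount that was not worked out. Of 15 tested genes of the receptor and signal transduction list, 2 rose and 2 fell with the knockdown at d2.5, where 10.8% and 13.6% of all genes did, and 3 rose and 2 fell of 14 at d5, where 15.6% and 16.1% did, so these counts were near the background. Socs1, an inhibitor of the receptor's kinases, fell with the knockdown at d2.5, with a log2 fold change of -0.74 (adjusted p = 0.00157). The receptor chain Ifnar1 was at 117 ± 2.40, 100.4 ± 1.22 and 103 ± 2.88 CPM (SD, n = 3) in the vehicle, FGF2 and knockdown groups of d2.5, a log2 fold change with FGF2 of -0.22 (adjusted p = 1.07e-05) and no call with the knockdown on either day (0.04 and 0.02).

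Of 16 tested genes of the sensing pathway, 3 were called with the knockdown at d2.5, all lower, and at an unadjusted p under 0.05 edgeR counted 1 higher and 3 lower, against 16.7% and 19.0% of all genes. At d5, 2 rose and 5 fell, against 15.6% called higher and 16.1% called lower of all genes. Tlr3, the endosomal receptor of double-stranded RNA, was at 10.3, 10.9 and 10.5 CPM in Ctrl+FGF2 and 7.47, 7.16 and 7.07 CPM in Y/T dKD+FGF2 at d5, a log2 fold change of -0.55 ± 0.11 (SE), adjusted p = 6.51e-04, and changed by 0.07 (adjusted p = 0.773) at d2.5. Tmem173 (STING, the adaptor of cytosolic DNA sensing) rose with the knockdown at d5 (log2 fold change 0.69 ± 0.09 (SE), adjusted p = 1.06e-05). Of 16 tested genes of MHC class I presentation, 5 rose and 2 fell with the knockdown at d2.5, against 10.8% and 13.6% of all genes. On d5, 2 rose and 5 fell, against 15.6% and 16.1% of all genes. At d2.5 H2-K1, a classical class I heavy chain, was at 20.4, 19.5 and 18.4 CPM in Ctrl+FGF2 and 13.0, 15.6 and 13.2 CPM in Y/T dKD+FGF2, and at d5 at 14.9, 16.4 and 15.8 CPM in Ctrl+FGF2 and 9.97, 8.95 and 9.07 CPM in Y/T dKD+FGF2. It fell on both days, with log2 fold changes of -0.48 and -0.75 (adjusted p = 0.00126 and 8.43e-06), and so did H2-D1 (-0.36 and -0.59).

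Another list held 59 other interferon-stimulated genes, of which 36 were tested at d2.5 and 31 at d5. With the knockdown 10 were called at d2.5, all higher (median log2 fold change 0.20), against 10.8% of all genes called higher and 13.6% lower. At an unadjusted p under 0.05 edgeR counted 17 higher and 2 lower, against 16.7% and 19.0% of all genes. At d5, 3 rose and 11 fell (median -0.17), against 15.6% and 16.1%. In the fit of both days the knockdown effect was called lower at d5 for 14 of 35 and higher for 2, against 9.35% and 11.6% of all genes. The mean level per library was 1.60, 1.68 and 1.61 at d2.5 and 1.43, 1.41 and 1.44 at d5 in Y/T dKD+FGF2, against 1.44, 1.44 and 1.43 and then 1.55, 1.56 and 1.55 in Ctrl+FGF2. Phf11d and Ifit3b rose most at d2.5, with log2 fold changes of 1.08 ± 0.40 (SE), adjusted p = 0.0477, and 1.02 ± 0.35 (SE), adjusted p = 0.0315. Both rest on few reads, with Ifit3b at 0.526, 0.775 and 0.567 CPM in Ctrl+FGF2 and 0.870, 1.32 and 1.59 CPM in Y/T dKD+FGF2. Ifit3b is a near-identical copy of Ifit3, so reads that fit both were not counted and neither level is complete. At d5 Oas3, a long oligoadenylate synthetase, was at 1.99, 2.77 and 2.55 CPM in Ctrl+FGF2 and 0.723, 0.234 and 0.668 CPM in Y/T dKD+FGF2, a log2 fold change of -2.18 ± 0.32 (SE), adjusted p = 4.41e-05, and Ifit3b at 2.34, 3.76 and 3.57 CPM in Ctrl+FGF2 and 1.04, 1.32 and 0.955 CPM in Y/T dKD+FGF2, a log2 fold change of -1.53 ± 0.27 (SE), adjusted p = 2.73e-04. Oas3 had also risen with FGF2, from 0.517, 0.139 and 0.414 CPM in Ctrl+vehicle and 3.30, 3.10 and 2.91 CPM in Ctrl+FGF2 at d2.5 (log2 fold change 3.11 ± 0.33 (SE), adjusted p = 9.98e-10) and from 0.945, 0.699 and 0.923 CPM in Ctrl+vehicle and 1.99, 2.77 and 2.55 CPM in Ctrl+FGF2 at d5 (1.52 ± 0.29 (SE), adjusted p = 3.19e-04).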

How the data were processed

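RNA-seq was measured in 18 libraries of O9-1 cells, 3 for each of 3 groups on 2 days. The authors deposited raw counts of reads per gene for each library, and their processing notes name STAR, featureCounts, Picard, FastQC and the mouse build mm10, without versions. Each table held 3 count columns. The reverse-strand column, with 96.0% to 96.6% of the stranded counts, was used here, and the unstranded one served as an alternative. The leading entries that name no gene, equal to between 27.0% and 34.4% of the total, were left out. Reads with several alignments are not in these counts, so near-identical copies (Ifit3 and Ifit3b, the Oas1, Ifitm, Gbp and Mx families) are uncertain. Of 55335 identifiers, 55154 were found in GENCODE M21, which gave symbols, lengths and coordinates (GRCm38).

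With edgeR 4.0.16 in R 4.3.3, genes were filtered by filterByExpr, scaled by TMM and fitted over the 9 libraries of each day, or over all 18 for the differences between days, using a quasi-likelihood test with Benjamini-Hochberg adjustment. DESeq2 1.42.0 was an alternative, beside other scalings, filters, sets of samples and thresholds, the replicate number as a term, and the omission of each library. The edgeR fit of each day was run on simulated counts for the knockdown comparison, and no other step was tested in this way. No pair of libraries within a group agreed within sampling noise. Promoter windows and their sequences came from RefSeq.

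The 39 genes and all other lists were chosen with earlier results of these data known. Values in every library were given for genes called with one of the 6 largest rises or falls of a comparison, and further genes of the 39 were added to cover the roles. Genes of other lists were named where called with one of the 2 largest changes, or as genes that define the pathway (Ifnar1, Ifnb1 and Tlr3). Some items are not reported here. H2-D1 at d5 was added after its value was seen.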

Additional observations from a re-analysis of the deposited data

Results flagged for a closer look

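The effect of FGF2 differed between d5 and d2.5 for 14 of the 33 genes in the 18-library edgeR fit, at an adjusted p under 0.05. The difference (effect at d5 minus effect at d2.5, log2) was 2.30 for Gbp2, 1.55 for Ifitm1, 1.36 for Parp14, 1.06 for Gbp7, 0.83 for Ifit3, 0.81 for Irf7 and 0.76 for Gbp3. It was 0.70 for Ifi35, 0.69 for Stat2, 0.64 for Irf9, 0.51 for Ddx58 and 0.31 for Eif2ak2. Bst2 at -0.64 and Ifi44 at -0.86 went the other way.

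The effect of the Yap/Taz knockdown differed between the days for 23 of the 33 genes by the same test. Among RNA-level effectors and sensors the difference was -2.30 for Oas2, -2.08 for Ifit3, -1.10 for Ifit2, -1.08 for Oasl2, -0.79 for Ifit1, -0.46 for Eif2ak2, -0.93 for Ifih1 and -0.34 for Ddx58. Oas2 rests on 1 to 17 counts per library in the groups compared. Usp18 had 5 to 28 counts and Mx2 had 6 to 22 counts per library over all 18 libraries. Among the GTPases it was -1.035 for Igtp, -0.98 for Gbp7, -0.80 for Gbp3 and -0.64 for Irgm1. It was -1.83 for Usp18, -1.78 for Ifi44, -1.72 for Mx2, -1.20 for Xaf1, -0.84 for Tap1, -0.77 for Parp14, -0.59 for Irf9, -0.45 for Bst2 and -0.36 for Stat2. Ifitm3 at 0.51 and Irf1 at 0.28 went the other way. Each day is a batch of its own in the labels, so the effect of day and the effect of batch on these differences cannot be told apart.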

How the results depend on the processing

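No called gene or count changed direction under any alternative run, while 2 medians near 0 changed sign. With DESeq2, 8 genes were called higher with the knockdown at d2.5 and 7 lower at d5, where edgeR called 13 and 14. Over all genes and in either direction, DESeq2 called 2282 of 11568 at d2.5 and 3042 of 14000 at d5. The edgeR totals were 3345 of 13677 and 4220 of 13304. An adjusted p under 0.01 left 6 lower with the knockdown at d5, and a minimum of 10 counts in every library left 3 higher with FGF2 at d2.5. The number with a lower effect of FGF2 at d5 than at d2.5 was 1 under upper-quartile factors, DESeq2, the 10-count minimum, the replicate block and the stricter threshold. The number with a higher effect of the knockdown at d5 was 1 under DESeq2, no filter and the stricter threshold. With knockdown and vehicle compared at d5, the median log2 fold change was 0.01 under upper-quartile factors and with no filter, and 0.03 without Ctrl+vehicle d5 replicate 1, and that of FGF2 at d2.5 was 0.01 without Ctrl+vehicle d2.5 replicate 1. Leaving out 1 library at a time gave between 9 and 16 genes higher with the knockdown at d2.5 and between 7 and 17 lower at d5. It gave between 10 and 13 higher with FGF2 at d5 and between 10 and 11 lower at d2.5. For the differences between days it gave between 1 and 3 lower and 11 and 15 higher for FGF2, and between 1 and 2 higher and 19 and 23 lower for the knockdown. Of 125 calls over the 8 comparisons, 125 were kept with RLE factors, 122 with the unstranded counts, 122 with the replicate block and 92 with DESeq2. Samples that share a replicate number had deviations that correlated between -0.09 and 0.19, not over 0.1 in every pair. The highest were 0.17 and 0.19, for replicates 1 and 2 of Ctrl+vehicle d5 and Ctrl+FGF2 d5, against -0.16 and -0.18 when crossed. Whether replicates share more than a number is therefore not settled. With the replicate block 13 genes fell with the knockdown at d5. Depth limits the 6 genes that could not be tested.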
